A study of Rattus norvegicus with 24 samples.

Results

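The 9 genes Slc2a1, Ldha, Pgk1, Higd1a, Bnip3, Bnip3l, Ero1a, Car9 and Ndrg1 are genes of glucose uptake, glycolysis and the response to low oxygen. They were taken as every probe whose only gene symbol in the platform annotation is one of them, which gave 15 of 31099 probes, for 9 of 14218 genes with such a probe. The probes were measured in microvessels isolated from rat brain cortex, with 8 arrays in each of 3 groups. HAL rats had a portocaval anastomosis, a shunt that leads portal blood past the liver, and 24 h later ligation of the hepatic artery. HEP rats had the same shunt and 24 h later removal of the whole liver. Sham rats went through both operations in mock form. Rats of all 3 groups were decapitated 8 to 12 h after the last operation, so both groups with acute liver failure carry the shunt and Sham carries neither step. HEP rats had no liver left, while HAL rats kept a liver without its arterial and portal supply. No strain, sex or age is given in the labels, nor whether 1 rat or several stand behind an array. The p-values therefore measure only the spread between arrays, and the number of arrays limits the precision.

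When oxygen is low, the hypoxia-inducible factors HIF-1α and HIF-2α are no longer hydroxylated by the Egln enzymes and escape degradation through Vhl. They pair with Arnt and bind a short core sequence in the control regions of their target genes, and through these targets cells take up more glucose, make lactate from it and remove mitochondria. In brain vessels the endothelium itself depends on this metabolism and also carries glucose to the tissue, through the transporter encoded by Slc2a1.

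The deposited cells hold only the decimals of log2 signals, without the integer part. A signal below 10 leaves 9 decimals and a signal from 10 on leaves 8, unless a zero at either end was lost. A cell of 9 digits therefore marks a signal below 10. A cell of 8 digits marks a signal from 10 on or one below 10 that lost a zero. Of the 15 member probes, 4 had between 1 and 14 arrays with 9 digits and were taken as near 10, where a cell was read as a log2 signal of 9 or 10 plus its decimals (readings). A further 7 had no such array and were taken as 10 or above on all arrays, and 4 lay below 10. For these 11 probes only the decimals were compared, turned around the circle of one log2 unit so that each lies within 0.5 of the probe's mean. A difference between groups then has the direction of the shorter way round, and a change by more than 0.5 would appear with the other sign. Cells too short to be read, which lost a zero, were left out. A zero at the front is lost when a signal lies just above a whole unit, so the omission depends partly on the signal. It can shift the means and ranges of a group, and the number of arrays read differs between groups. For Bnip3 it was 7 in HAL, 4 in HEP and 7 in Sham. Levels were compared only within a probe, since the integer parts are unknown and probes differ in affinity.

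The core sequence bound by the factors is shown in the promoters of Higd1a, the member that passed the test, Slc2a1, the member with the next smallest p, and Ldha, which holds the most matches. Each runs from 250 bases before to 50 bases after the annotated start of the gene, 5′ to 3′ on the strand of the gene, in RefSeq's annotation of build GRCr8. Capitals mark matches to ACGTG or GCGTG on either strand. Matches can overlap, as where ACGTG stands on both strands of CACGTG. The regions are chr8:130400839-130401138 on the minus strand for Higd1a, chr5:138002272-138002571 on the plus strand for Slc2a1 and chr1:106507842-106508141 on the plus strand for Ldha.
Higd1a: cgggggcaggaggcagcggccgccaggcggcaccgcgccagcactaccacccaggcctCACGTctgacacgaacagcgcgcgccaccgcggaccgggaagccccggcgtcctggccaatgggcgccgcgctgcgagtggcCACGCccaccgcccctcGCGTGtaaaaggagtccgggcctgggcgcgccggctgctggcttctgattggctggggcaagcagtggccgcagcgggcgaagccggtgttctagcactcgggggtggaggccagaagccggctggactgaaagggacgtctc
Slc2a1: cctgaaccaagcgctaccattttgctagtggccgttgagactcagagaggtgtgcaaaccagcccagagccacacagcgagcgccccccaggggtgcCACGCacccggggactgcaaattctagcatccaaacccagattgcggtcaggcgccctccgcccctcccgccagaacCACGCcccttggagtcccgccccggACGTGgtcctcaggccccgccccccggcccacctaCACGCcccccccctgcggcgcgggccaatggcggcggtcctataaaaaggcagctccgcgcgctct
Ldha: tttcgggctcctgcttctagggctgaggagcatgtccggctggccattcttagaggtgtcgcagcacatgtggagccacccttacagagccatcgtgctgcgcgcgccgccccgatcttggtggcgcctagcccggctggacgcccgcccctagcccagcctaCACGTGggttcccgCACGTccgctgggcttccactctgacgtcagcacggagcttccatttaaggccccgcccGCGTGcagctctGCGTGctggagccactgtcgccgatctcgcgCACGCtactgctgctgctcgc

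The table of promoters held 5 of the 9 members, and 5 of these 5 had at least 1 match, against 41.6% of 33469 promoters of the same length. Higd1a had 3 matches, Slc2a1 4, Bnip3 4, Ldha 6 and Car9 1. At least 3 matches were found in 4 of the 5, against 8.15% of all promoters. The members are known targets of these factors, so the matches are a description of the set. Bnip3l, Ero1a, Ndrg1 and Pgk1 were not matched in that table. The map of matches shows where they lie.

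**Figure D1:**
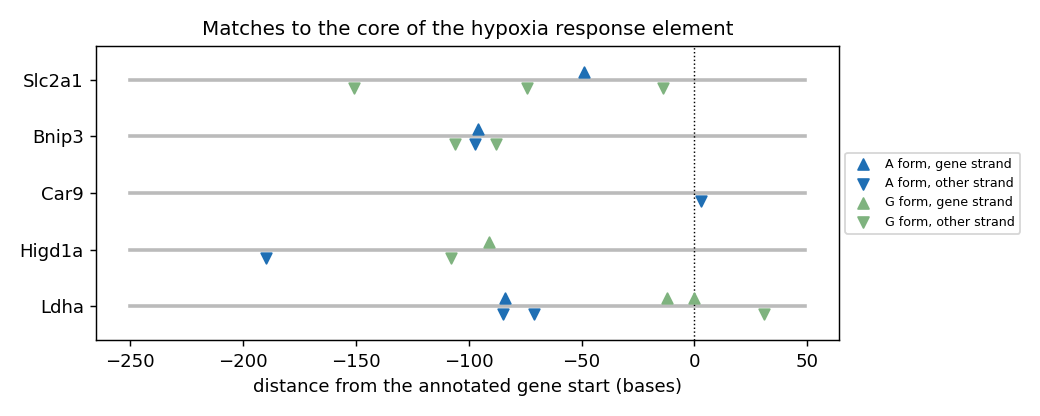
Positions of matches to the core sequence in 5 promoters, in bases from the annotated start of the gene (horizontal axis), with upward triangles for the strand of the gene and downward triangles for the other strand. The 6 matches of Ldha lie between -87 and 33 bases, and the only match of Car9 begins 1 base after the first base of the gene.

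Across the 15 probes, 0 passed the test in HAL and 1 passed in HEP, a probe of Higd1a near 10 that was higher than in Sham. The test was limma over all 24 arrays with Benjamini-Hochberg adjustment over all probes of a class, called at an adjusted p under 0.05. In HAL minus Sham it called 3.72% of all probes near 10, 1.19% of those at 10 or above and 0.105% of those below 10. In HEP minus Sham it called 2.18%, 0.673% and 0.03% of these classes, and 1.19% of the probes near 10 were called as higher. Unadjusted p-values under 0.05 were found for 5 of the 15 member probes in HAL and for 7 in HEP. In HEP they were 2 of 4 probes near 10, against 14.5% of all probes near 10, 4 of 7 at 10 or above, against 14.7%, and 1 of 4 below 10, against 8.73%. In HAL they were 2 of 4, against 17.1%, 2 of 7, against 16.7%, and 1 of 4, against 11.3%. A test of the decimals that uses no direction and no digit count, an exact permutation test, left no member called after adjustment. It called 0% of all probes near 10 and below 10 in both comparisons, and of those at 10 or above 1.29% in HAL and 0% in HEP. Both comparisons share the 8 Sham arrays.

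The members' median differences are given for probes near 10 and at 10 or above, beside those of all probes tested there. Sizes cannot be compared between classes, since readings near 10 can run from 9 to 11 and other decimals are held within 0.5 of the mean. In HEP the median difference of the 4 member probes near 10 was 0.40, against -0.00401 over all 2526 probes tested there, and that of the 7 at 10 or above was 0.17, against -0.00939 over 1933. In HAL these medians were 0.30, against -0.0327, and -0.0419, against -0.0229. Differences above 0 were found for 11 of 15 member probes in HEP, where 49.3% of all probes near 10, 46.6% of those at 10 or above and 52.3% of those below 10 were above 0. In HAL they were found for 9 of 15, against 44.5%, 42.9% and 55.1% of these classes. The plot of differences shows each probe with its interval.

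**Figure D2:**
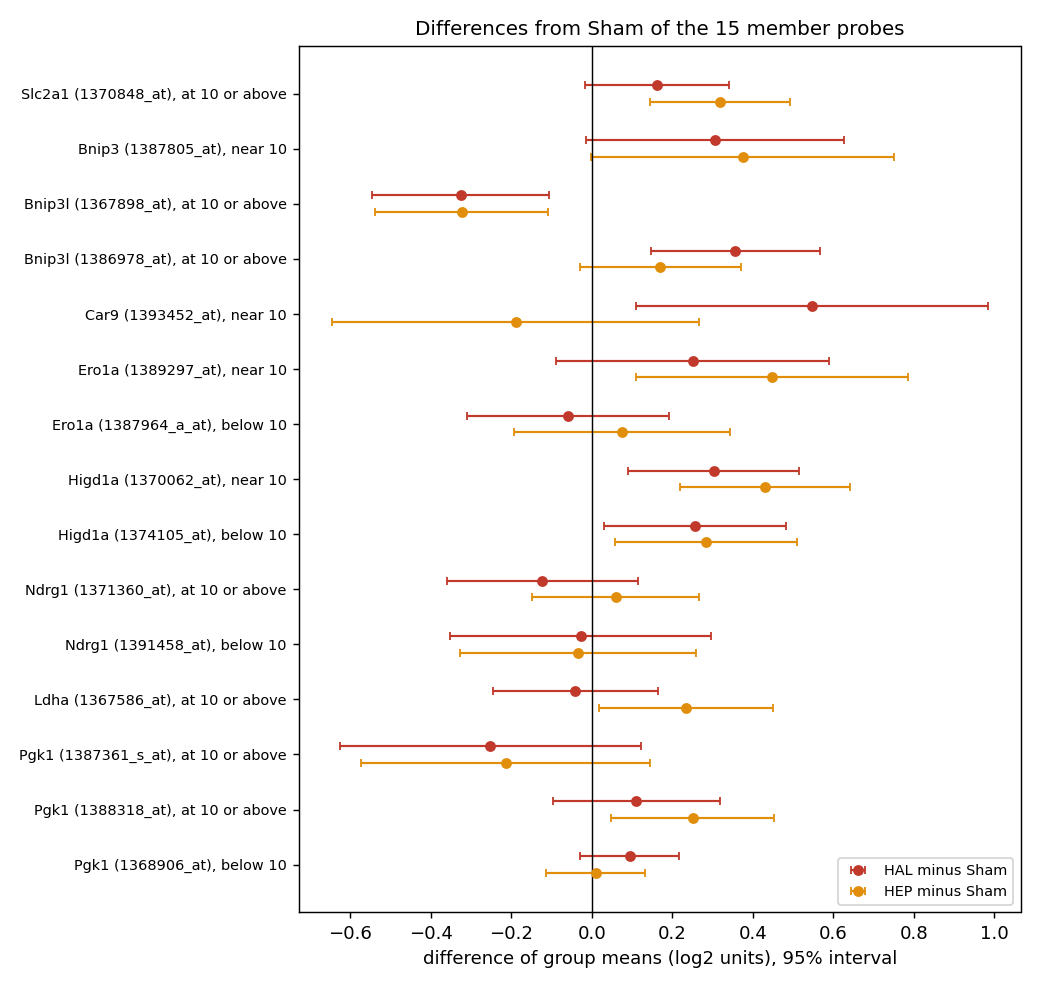
Difference of group means from Sham in log2 units (horizontal axis) for the 15 member probes (rows), with 95% intervals, HAL in red above HEP in orange. Only the HEP difference of the Higd1a probe near 10, at 0.43, passed the test after adjustment, and both Bnip3l probes at 10 or above have differences of opposite sign.

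Higd1a encodes a small protein of the inner mitochondrial membrane that low oxygen induces. Its probe 1370062_at, near 10, rose in HEP. The readings ran from 10.22 over a median of 10.54 to 10.57 in HEP (7 arrays read), from 10.17 over 10.35 to 10.50 in HAL (7 arrays) and from 9.90 over 9.96 to 10.30 in Sham (8 arrays). By the digit count, all 7 HEP and all 7 HAL arrays read were taken as 10 or above, against 3 of 8 Sham arrays. The mean was 10.46 ± 0.15 in HEP, 10.34 ± 0.11 in HAL and 10.03 ± 0.14 in Sham (SD), and the groups overlapped, since the highest Sham array lay above the 2 lowest HEP arrays. HEP exceeded Sham by 0.43 with an SE of 0.10 (95% interval 0.22 to 0.64), a ratio of 1.35, with an adjusted p of 0.0268 in limma. HAL exceeded Sham by 0.30 with an SE of 0.10 (adjusted p = 0.107), and by 0.35 with an adjusted p of 0.0499 once each array was centred on its median deviation. The HEP call was lost without HEP array 3, 4, 5, 6 or 7 (adjusted p of 0.0507 to 0.0664), when only HEP and Sham were fitted (adjusted p = 0.0534) and when the decimals were read on a circle, where the difference was again 0.43 (adjusted p = 0.257). The direction-free test gave an adjusted p of 0.209.

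The other probe of Higd1a, 1374105_at, lay below 10 and had differences of the same sign by its decimals, taken the shorter way round. They were 0.64, 0.70, 0.90, 0.82 and 0.46 in HEP and 0.30, 0.53, 0.89, 0.71 and 0.96 in HAL, while Sham ran from 0.24 over 0.41 to 0.60 in 7 arrays. The groups overlapped. HEP minus Sham was 0.28 (SE 0.11, adjusted p = 0.411) and HAL minus Sham 0.26 (SE 0.11, adjusted p = 0.378), neither past the test in limma. Read the longer way round, they would be -0.72 in HEP and -0.74 in HAL, so the direction was not settled. Exact permutation tests of this probe gave p = 0.0114 in HEP and p = 0.053 in HAL, without adjustment.

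**Figure D3:**
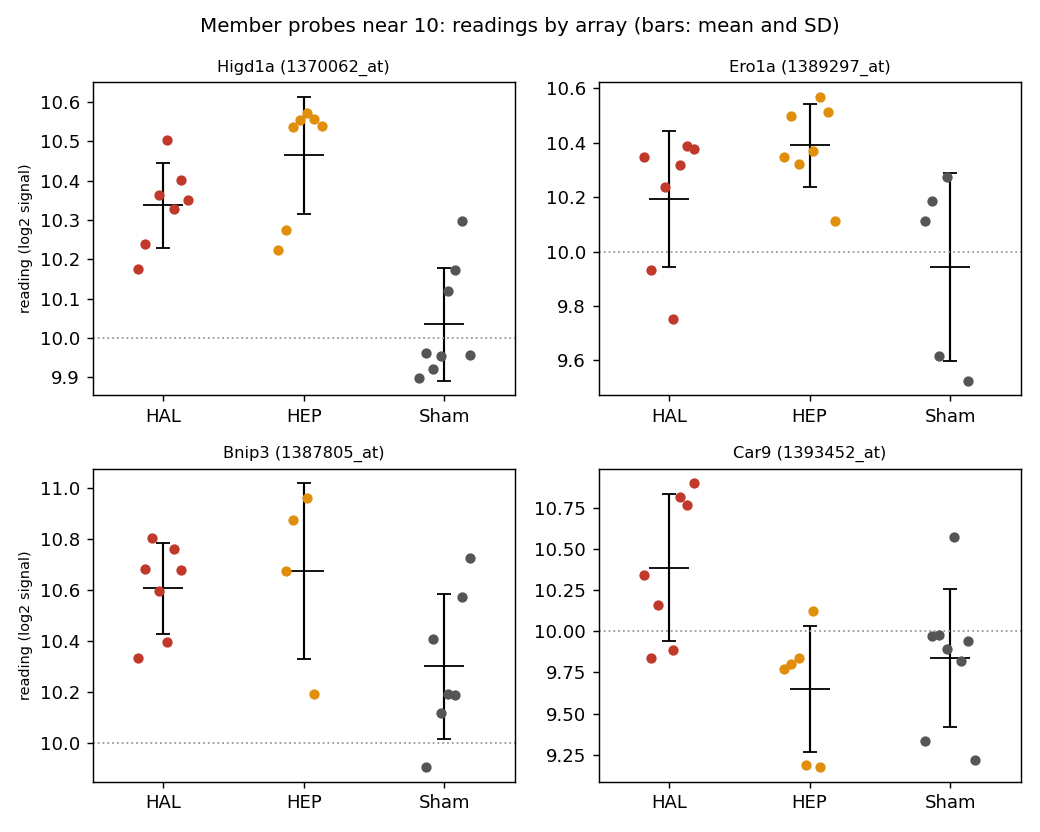
Readings in log2 units (vertical axis) of the 4 member probes near 10, 1 point per array read, with mean and SD as bars for HAL, HEP and Sham from left to right. For Higd1a all HAL and HEP points lie above the dotted line at 10 while 5 of 8 Sham points lie below it, and for Car9 5 of 7 HAL points lie above it against 1 of 6 in HEP and 1 of 8 in Sham.

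Slc2a1 encodes GLUT1, the glucose transporter of the blood-brain barrier. Its probe 1370848_at stood at 10 or above on all arrays read. The decimals ran from 0.34 over a median of 0.76 to 0.87 in HEP (8 arrays), from 0.34 over 0.62 to 0.71 in HAL (7 arrays) and from 0.28 over 0.37 to 0.56 in Sham (6 arrays). Of the HEP arrays 7 lay between 0.72 and 0.87, above every Sham array and every HAL array, and HEP array 8 alone lay at 0.34. HEP minus Sham was 0.32 (SE 0.0848, 95% interval 0.14 to 0.49, adjusted p = 0.0662), just short of the threshold in limma. Without HEP array 8 the difference was 0.37 and the adjusted p 0.00646. It also passed with arrays centred (adjusted p = 0.0348) and with array weights (adjusted p = 0.0115). HAL minus Sham was 0.16 (SE 0.0874, adjusted p = 0.369), and HAL minus HEP was -0.16 (adjusted p = 0.651). Read the longer way round, the HEP difference would be -0.68.

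Ldha, which makes lactate from pyruvate, had a probe at 10 or above (1367586_at). The decimals of the 5 HEP arrays read were 0.83, 0.95, 0.99, 0.80 and 0.65. HAL ran from 0.22 over 0.59 to 0.87 and Sham from 0.47 over 0.60 to 0.81, in 6 arrays each. The HEP arrays overlapped with both groups. The difference of HEP from Sham was 0.23 (SE 0.10, adjusted p = 0.302), while HAL minus Sham was -0.0419 (SE 0.0993, adjusted p = 0.893) and HAL minus HEP was -0.28 (SE 0.10, adjusted p = 0.521). None passed.

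Pgk1 encodes phosphoglycerate kinase, an enzyme of glycolysis that makes ATP, and had 3 probes. On 1388318_at, at 10 or above, the decimals ran from 0.15 over 0.46 to 0.74 in HEP (8 arrays) and from 0.13 over 0.35 to 0.65 in HAL (7 arrays), while the 5 Sham arrays read lay at 0.17, -0.0369, 0.29, 0.32 and 0.32. Of the HEP arrays 7 lay above all Sham arrays, and HEP array 8 was the lowest. The HEP mean was 0.25 above Sham (SE 0.10, adjusted p = 0.224) and HAL minus Sham 0.11 (SE 0.10, adjusted p = 0.647). On 1368906_at, below 10, the arrays of a group lay close together, with means of 0.28 ± 0.0745 in HEP, 0.36 ± 0.13 in HAL and 0.27 ± 0.0396 in Sham (SD). HEP minus Sham was 0.00893 there (95% interval -0.11 to 0.13) and HAL minus Sham 0.0942 (-0.0291 to 0.22). The third probe, 1387361_s_at, whose suffix marks a probe set shared by several transcripts, was read on only 2 Sham arrays, with differences of -0.21 in HEP and -0.25 in HAL (adjusted p = 0.607 and 0.521). The 3 probes of Pgk1 thus gave differences of both signs, none past the test.

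**Figure D4:**
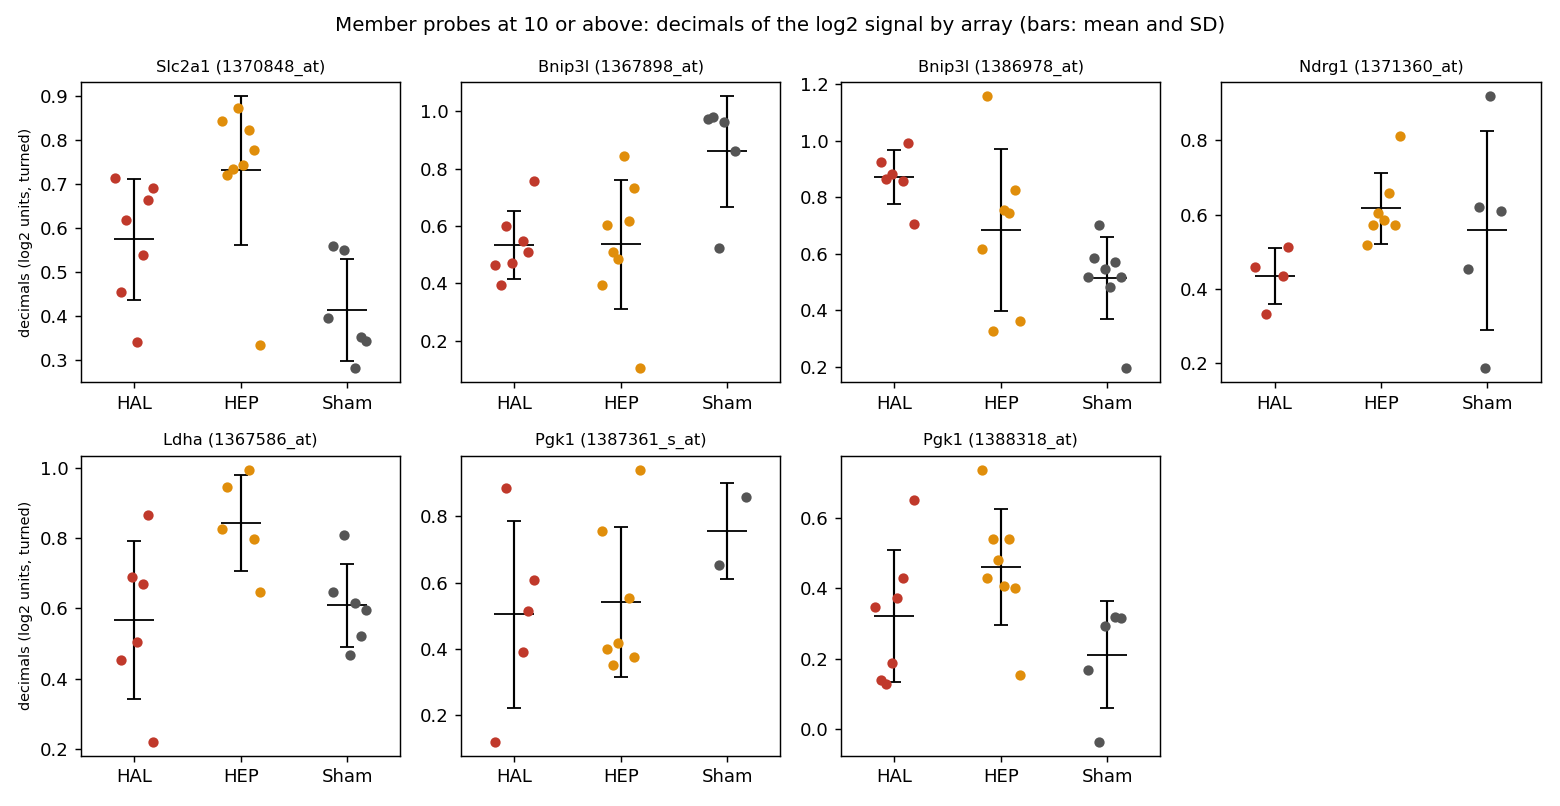
Decimals of the log2 signal, turned about the probe's mean (vertical axis), of the 7 member probes at 10 or above, 1 point per array read, with mean and SD as bars for HAL, HEP and Sham from left to right. For Slc2a1 7 of 8 HEP points lie above all Sham points, and for Bnip3l probe 1386978_at all HAL points lie above all Sham points.

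Bnip3 and Bnip3l (NIX) encode related receptors on the outer mitochondrial membrane that mark mitochondria for removal by autophagy, and both are HIF targets. Bnip3 was measured by 1387805_at, near 10. The 4 HEP arrays read stood at 10.68, 10.87, 10.96 and 10.19. HAL ran from 10.33 over 10.68 to 10.81 and Sham from 9.90 over 10.19 to 10.73, in 7 arrays each. The HEP mean was 0.37 above Sham (SE 0.18, adjusted p = 0.344) and HAL minus Sham 0.31 (SE 0.15, adjusted p = 0.323). The groups overlapped, and 4 HEP arrays were too short to be read. As some readings lie close to 11, where the integer part turns over unseen, a signal above 11 would be read a whole unit too low. With the decimals read on a circle instead, HAL minus Sham was -0.26.

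The 2 probes of Bnip3l, both at 10 or above, had differences of opposite sign by their decimals. On 1386978_at the 6 HAL arrays read ran from 0.70 over 0.87 to 0.99, the 7 HEP arrays from 0.33 over 0.75 to 1.16 and the 8 Sham arrays from 0.20 over 0.53 to 0.70. Every HAL array read lay above every Sham array. HAL and Sham did not overlap, in either direction, for 2.48% of all probes at 10 or above. HAL minus Sham was 0.36 (SE 0.10, 95% interval 0.15 to 0.57, adjusted p = 0.0746), short of the threshold. It passed when only HAL and Sham were fitted (adjusted p = 0.0397), with array weights (adjusted p = 0.0378) and without HEP array 2 (adjusted p = 0.0469). HEP minus Sham was 0.17 (SE 0.10, adjusted p = 0.43). Read the longer way round, the HAL difference would be -0.64, so its direction was not settled.

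On 1367898_at the 7 HAL arrays ran from 0.39 over 0.51 to 0.76 and the 8 HEP arrays from 0.10 over 0.56 to 0.85, while the 5 Sham arrays read lay at 0.97, 0.98, 0.53, 0.96 and 0.86. Sham array 3 stood among the HAL and HEP arrays and the other 4 above all of them. HAL minus Sham was -0.33 (SE 0.11, adjusted p = 0.108) and HEP minus Sham -0.32 (SE 0.10, adjusted p = 0.12), and both passed with array weights (adjusted p = 0.0378 and 0.0395). Read the longer way round, these differences would be 0.67 and 0.68, so the direction of this probe was not settled either. Bnip3l is also known for clearing mitochondria from maturing red cells. Of 3 red cell markers with a probe 1 stood at 10 or above, and 0 of their 4 probes passed in HAL or HEP. Differences above 0 were found for 1 of the 4 in HAL and 2 in HEP. The smallest p in HAL was that of Slc4a1, at -0.26 by its decimals (SE 0.12, adjusted p = 0.416 in limma). The part of red cells in the differences of Bnip3l was not tested.

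Ero1a encodes the oxidase of the endoplasmic reticulum that supports disulfide bond formation and is induced by low oxygen. Its probe 1389297_at, near 10, ran from 10.11 over 10.37 to 10.57 in HEP and from 9.75 over 10.32 to 10.39 in HAL, in 7 arrays each, while the 5 Sham arrays read stood at 10.11, 10.19, 9.62, 10.27 and 9.53. By the digit count, all 7 HEP arrays were taken as 10 or above, against 5 of 7 in HAL and 3 of 5 in Sham. The HEP mean was 0.45 above Sham (SE 0.16, 95% interval 0.11 to 0.78, adjusted p = 0.167) and HAL minus Sham 0.25 (SE 0.16, adjusted p = 0.481). The other probe, 1387964_a_at, lay below 10 and its decimals spread over most of the unit in every group, with differences of 0.0739 in HEP (95% interval -0.19 to 0.34) and -0.0593 in HAL (-0.31 to 0.19).

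Car9 encodes a carbonic anhydrase of the cell surface that helps to export acid and is a common marker of low oxygen. Its probe 1393452_at had 14 arrays with 9 digits, at the edge of the range taken as near 10. The readings ran from 9.84 over 10.34 to 10.90 in HAL (7 arrays), from 9.17 over 9.79 to 10.12 in HEP (6 arrays) and from 9.22 over 9.91 to 10.57 in Sham (8 arrays). Of the HAL arrays 5 were taken as 10 or above, against 1 in HEP and 1 in Sham. HAL minus Sham was 0.55 (SE 0.21, 95% interval 0.11 to 0.98, adjusted p = 0.17), HEP minus Sham -0.19 (SE 0.22, adjusted p = 0.77) and HAL minus HEP 0.74 (SE 0.23, adjusted p = 0.43). None passed. These values rest on the digit count, which a lost zero can change. The decimals alone read on a circle gave differences of -0.00656, 0.0184 and -0.025.

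Ndrg1, a gene of the stress response that low oxygen induces, had 2 probes without a difference past the test. On 1371360_at, at 10 or above, the 4 HAL arrays read lay at 0.46, 0.33, 0.43 and 0.51 and the 7 HEP arrays ran from 0.52 over 0.58 to 0.81. The 5 Sham arrays lay at 0.45, 0.62, 0.19, 0.92 and 0.61, on both sides of them. Every HAL array read lay below every HEP array read. HAL and HEP did not overlap, in either direction, for 0.517% of all probes at 10 or above. HAL minus HEP was -0.18 (SE 0.11, 95% interval -0.40 to 0.0393, adjusted p = 0.708), HAL minus Sham -0.12 (SE 0.11) and HEP minus Sham 0.0595 (SE 0.10). On 1391458_at, below 10, HAL minus Sham was -0.0284 (95% interval -0.35 to 0.30) and HEP minus Sham -0.0344 (-0.33 to 0.26).

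In HAL minus HEP the test called 0 of the 15 member probes and 0% of all probes in each of the 3 classes. Unadjusted p-values under 0.05 in limma were found for 2 member probes, those of Ldha and Car9. The share of all probes with such a p was 8.55% near 10, 7.97% at 10 or above and 6.55% below 10. The direction-free test called 0% of each class. For Higd1a near 10 HAL minus HEP was -0.13 (95% interval -0.35 to 0.0909). The order of the group means was HEP, HAL, Sham from high to low for both Higd1a probes, Ero1a near 10, Bnip3 and Slc2a1. The same held for Pgk1 probe 1388318_at. Outside the class near 10 this order rests on decimals taken the shorter way round. All other member probes had another order, such as HAL, Sham, HEP for Car9 and HEP, Sham, HAL for Ldha. No pair of HAL and HEP means differed past the test.

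By array, the median deviation of the 11 member probes near 10 or above from their Sham means lay above 0 in 7 of 8 HEP arrays and in 7 of 8 HAL arrays, against 5 of 8 Sham arrays. It ranged from -0.00983 to 0.28 in HEP, from -0.000314 to 0.31 in HAL and from -0.10 to 0.0943 in Sham. Over all probes of these classes the array medians ranged from -0.0648 to 0.0124 in HEP, from -0.12 to 0.0101 in HAL and from -0.0695 to 0.0195 in Sham. HEP array 8, the lowest HEP array of Slc2a1 and of Pgk1 probe 1388318_at, was the HEP array without an upward median, and HAL array 2, lowest over all probes at -0.12, was the one in HAL. Each array contributed only the 6 to 11 probes that could be read. As deviations were taken from the Sham means, the Sham arrays lie around 0 by design. The HAL and HEP medians restate the differences above and are not separate evidence.

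**Figure D5:**
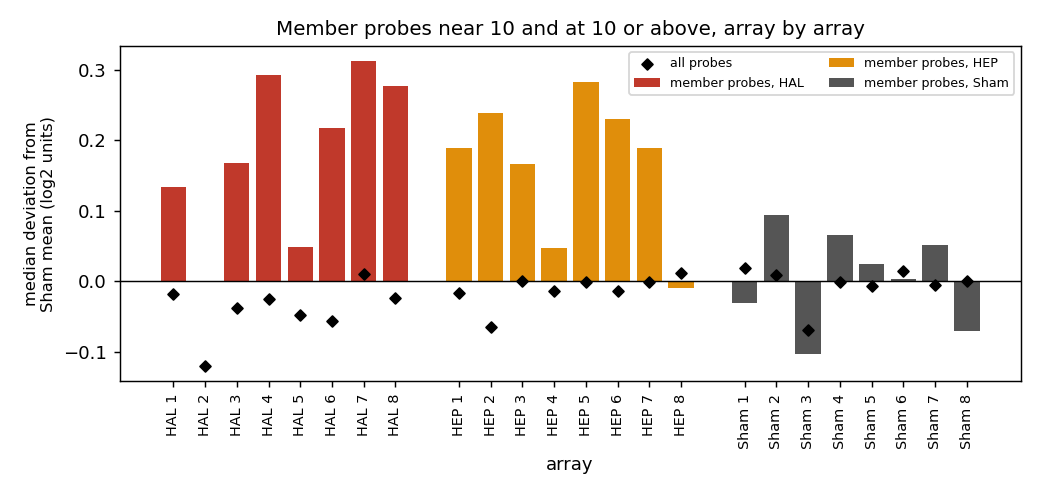
Median deviation from the Sham mean in log2 units (vertical axis) over the member probes near 10 or at 10 or above that could be read, for each array (bars), with the same median over all probes of these classes (diamonds). The bars of 7 HAL and 7 HEP arrays lie above 0, while those of Sham lie on both sides.

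Other genes of the same pathways were counted from lists chosen for this comparison. Of the glycolysis enzymes 1 of 35 probes passed in HEP and 0 in HAL, while 27 of 35 had a difference above 0 in HEP and 24 in HAL. The probe that passed was that of Hk1, a hexokinase that starts glycolysis and sits on mitochondria (1386929_at, near 10). It averaged 10.29 ± 0.27 in HEP, 10.24 ± 0.22 in HAL and 9.75 ± 0.22 in Sham (SD, n = 7 each). The HEP mean was 0.55 above Sham (SE 0.14, adjusted p = 0.045) and HAL minus Sham 0.49 (SE 0.14, adjusted p = 0.0568). The HEP call was lost when only HEP and Sham were fitted (adjusted p = 0.0731), and over single arrays left out its adjusted p ran from 0.00651 to 0.0965, failing without any of HEP arrays 1 to 7, Sham arrays 1, 2, 3, 6, 7 or 8, or HAL arrays 1, 4 or 8. In HAL it passed with arrays centred (adjusted p = 0.0346). The decimals of Hk1 alone, read on a circle, gave differences of the other sign, -0.0261 in HEP and -0.22 in HAL. Pfkfb3, which drives flux through phosphofructokinase, had the smallest p of the list in HAL, with a difference in decimals of 0.33 (SE 0.0802, adjusted p = 0.105). Other enzymes went the other way. Pfkfb2, near 10, was at -0.75 in HAL (SE 0.22, adjusted p = 0.0568, as for Hk1) and 0.0129 in HEP. In HEP Pfkp was at -0.27 (adjusted p = 0.319) and Aldoc at -0.26 (adjusted p = 0.391), both by their decimals.

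Of the HIF pathway itself, its subunits, hydroxylases and Vhl, 0 of 14 probes passed in either group, with 0 unadjusted p-values under 0.05 in HEP and 1 in HAL. That one was Cited2, a competitor of the factors for a coactivator, with a difference of -0.30 (SE 0.12, adjusted p = 0.356). Of 44 probes of HIF targets outside glycolysis 0 passed, and 22 had a difference above 0 in HEP and 21 in HAL. The smallest p in HAL belonged to Vegfa, the growth factor of vessels, with a difference of 0.21 (SE 0.0722, adjusted p = 0.244), and in HEP to Mif, a cytokine, with 0.29 (SE 0.13, adjusted p = 0.549).

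The other glucose and lactate carriers did not pass in 16 probes, with Slc2a4, the insulin-regulated transporter, at -0.33 in HEP (SE 0.12, adjusted p = 0.399) and Mpc2, a subunit of the mitochondrial pyruvate carrier, at -0.26 in HAL (SE 0.11, adjusted p = 0.364). Of 16 mitophagy probes 0 passed. The probes of Sqstm1, the autophagy receptor p62, had the smallest p-values, at 0.28 in HAL (SE 0.10, adjusted p = 0.241) and 0.27 in HEP (SE 0.12, adjusted p = 0.293). Of 17 probes of other carbonic anhydrases 0 passed, with Car14 at 0.25 in HAL (SE 0.0793, adjusted p = 0.192) and Car5b at -0.32 in HEP (SE 0.11, adjusted p = 0.289). Of 14 probes of paralogs of the members 0 passed, and Bnip2 had the smallest p in HEP, at 0.25 (SE 0.11, adjusted p = 0.497), and Higd1b in HAL, at -0.12 (SE 0.0929, adjusted p = 0.582).

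Over the 24 arrays, the named genes near 10 whose readings differed least from those of Higd1a were Rabggtb, Prr13 and Sbds. This measure does not ask for the same group differences. After subtraction of each probe's own mean, the readings differed from those of Higd1a by 0.10 on average for Rabggtb (17 arrays read in both), 0.13 for Prr13 (19 arrays) and 0.13 for Sbds (17 arrays), against a median of 0.38 over 1694 probes compared. HEP minus Sham was 0.41 for Rabggtb, 0.10 for Prr13 and 0.58 for Sbds, none past the test (adjusted p = 0.179, 0.849 and 0.0876). The arrays share the groups and the array effects, and no p is given.

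The vessel origin was checked on markers. On all 24 arrays a probe stood at 10 or above for 10 of 11 endothelial markers, 3 of 8 pericyte, 3 of 6 smooth muscle, 4 of 6 perivascular fibroblast, 3 of 7 astrocyte and 1 of 5 oligodendrocyte markers with a probe, and for 0 of 8 neuron, 0 of 6 microglia and 0 of 6 hepatocyte markers. In HAL 1 of 17 endothelial probes was called, Slco1a4, an organic anion transporter of the barrier, which was lower by its decimals (-0.35, SE 0.079, adjusted p = 0.0221). It was no longer past the threshold without HAL array 8 (adjusted p = 0.0519). Of 8 perivascular fibroblast probes 1 was called in HAL, Col3a1, a fibrillar collagen, at 9.61 ± 0.31 in HAL and 10.48 ± 0.30 in Sham (SD, n = 7 each, difference -0.87, SE 0.23, adjusted p = 0.0312). This call was lost without Sham array 2, 7 or 8 or HAL array 6, 7 or 8 (adjusted p of 0.0511 to 0.0671), and the decimals alone, read on a circle, gave 0.13. No marker probe was called in HEP. Differences above 0 in HEP were found for 8 of 17 endothelial, 6 of 12 pericyte, 2 of 7 smooth muscle, 1 of 8 perivascular fibroblast and 10 of 14 astrocyte probes. They were found for 6 of 13 neuron, 4 of 10 oligodendrocyte, 1 of 8 microglia, 2 of 4 red cell and 4 of 9 hepatocyte probes. In HAL they were 6 of 17 endothelial, 5 of 12 pericyte, 2 of 7 smooth muscle and 3 of 8 perivascular fibroblast probes. They also were 10 of 14 astrocyte, 8 of 13 neuron, 5 of 10 oligodendrocyte and 4 of 8 microglia probes. Red cell probes above 0 in HAL were 1 of 4 and hepatocyte probes 8 of 9. Unadjusted p-values under 0.05 in limma belonged in HEP to 2 endothelial, 1 pericyte, 1 smooth muscle, 2 perivascular fibroblast and 1 astrocyte probe. They also belonged to 2 oligodendrocyte, 1 microglia and 1 hepatocyte probe. The share over all probes was 14.5% near 10, 14.7% at 10 or above and 8.73% below 10. The smallest p was that of Mobp, an oligodendrocyte marker, at 0.37 by its decimals (SE 0.0777, adjusted p = 0.0996). Of the perivascular fibroblast probes it was Col1a2, a chain of fibrillar collagen, at -0.61 (SE 0.24, adjusted p = 0.206). In HAL unadjusted p-values under 0.05 in limma belonged to 5 endothelial, 2 pericyte, 2 smooth muscle and 2 perivascular fibroblast probes. They also belonged to 2 astrocyte, 2 microglia and 1 red cell probe. The share over all probes in HAL was 17.1% near 10, 16.7% at 10 or above and 11.3% below 10. The part of the cell composition in the members' differences was not tested, and in tissue samples of this kind fewer cells of a type and less RNA per cell cannot be told apart.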

How the data were processed

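RNA of cortical microvessels was hybridised to 24 arrays, and groups were taken from the sample titles. Per the submitters' processing notes the authors made the values with RMA, which gives normalised log2 signals, and the notes give no version. The labelling kit named in the labels' protocols is one for whole-transcript arrays, while the annotation is that of a 3' expression array, a mismatch that was not resolved. The deposited cells hold up to 9 digits, taken as the decimals of log2 values. Readings and classes were made as described above, and no 2 columns were identical.

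limma 3.58.1 in R 4.3.3 (lmFit, eBayes) was fitted with group means over the 24 arrays, separately for 2526 probes near 10, 1933 at 10 or above and 26630 below 10, each with at least 2 readings a group. The fit first chosen kept only probes whose decimals had a resultant length of at least 0.5 on the circle. This limit removes probes whose decimals spread widely, within groups or by a shift between them, and left only 2 of the 11 member probes it applies to. The fit without a limit, an alternative set out from the start, is therefore reported for differences outside the class near 10. This choice was made after the data were seen. At short resultant lengths, such as 0.135 for Ndrg1 probe 1391458_at and 0.214 for Ero1a probe 1387964_a_at, the sign and size of a difference are poorly defined. The fits were also run on simulated data. Their spread was taken from probes at 10 or above within the limit, so they do not stand for member probes outside it. No result here rests on them. Python 3.11.15 with numpy 2.4.6 and pandas 2.3.3 read the digits and ran the exact permutation tests, which are two-sided, and matplotlib 3.10.9 drew the figures. Other alternatives were the replicate number as a block, 2 groups only, centred or weighted arrays, other readings and each array left out.

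The members, lists and tests were chosen with earlier results of these data known. Every member probe is named. Of the other lists the text names called probes or else the probe with the smallest p. Pfkfb2, Pfkp and Aldoc are named in addition, as enzymes with a lower mean. For likeness the 3 closest genes over at least 16 arrays are named. The annotation gave 20832 of 31099 probes a single symbol and 9831 none, and 436 probes with several were not used. Results outside the 9 genes and these lists were left out.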

Additional observations from a re-analysis of the deposited data

Results flagged for a closer look

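Of 44 groups of arrays tested over the member probes, 3 held an array that stood apart from the rest by Dixon's criterion, where chance gives about 1 in 20 groups. In Slc2a1 HEP array 8 had decimals of 0.34 while the other HEP arrays lay between 0.72 and 0.87. In Bnip3l probe 1367898_at Sham array 3 had 0.53 while the others lay between 0.86 and 0.98. In Bnip3l probe 1386978_at Sham array 8 had 0.20 while the others lay between 0.48 and 0.70. Decimals hide the integer part, so such an array may differ by another whole unit.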

How the results depend on the processing

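Over 45 member differences in the reported fit and all alternatives with an adjusted p, 1305 of 1373 values kept their direction and side of the threshold, 9 passed it, 7, all of Higd1a in HEP, no longer passed and 52 changed sign. In the 45 unadjusted exact permutation tests 3 differences had a p under 0.05 there and not in limma, and 1 the other way. The causes were not tested unless named. In HAL minus Sham 94 probes near 10 were called, 27 as higher and 67 as lower (47 and 56 with arrays centred), 1 at 10 or above and 3 below 10 within the limit of 0.5. In HEP minus Sham these counts were 55, 6 and 0, and in HAL minus HEP 0 in each class. With decimals on the circle, or with the direction-free test, the counts near 10 were 0 in HAL and 0 in HEP. The direction-free test called 25 probes at 10 or above and 0 below 10 in HAL, and 0 at 10 or above in HEP. Without a limit 23 and 28 probes were called at 10 or above and below 10 in HAL, and 13 and 8 in HEP. A limit of 0.7 gave 0 and 0 in HAL, and 0 at 10 or above in HEP. In HAL at 10 or above, opening the circle at the widest gap gave 0, reading short cells by the nearer lost zero 29 and 1 probe per gene 13, and below 10 the last gave 0. With 2 groups only HAL had 0 at 10 or above and 0 below 10, and HEP 1 at 10 or above. Arrays centred gave 7 at 10 or above and 1 below 10 in HAL and 13 at 10 or above in HEP. Array weights gave 26 at 10 or above in HAL, 127, 49 and 3 for near 10, at 10 or above and below 10 in HEP, and 2 at 10 or above in HAL minus HEP. With the limit of 0.5 the count of called member probes was 0 in HAL and 1 with arrays centred (Higd1a), and 1 in HEP, which became 0 on the circle, with 2 groups only and in the direction-free test. In the reported fit without a limit it was 0 in HAL, 1 with 2 groups only, 1 with arrays centred and 2 with array weights, and 1 in HEP, 0 with 2 groups only, 2 with arrays centred and 3 with array weights.

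Leaving out 1 array gave 63 to 120 called probes near 10, 0 to 18 at 10 or above and 0 to 3 below 10 in HAL, 29 to 137, 0 to 23 and 0 to 1 in HEP, and 0 to 2 at 10 or above in HAL minus HEP. Called member probes were 0 to 1 in HEP with the limit. Without it they were 0 to 1 in HAL and 0 to 2 in HEP, 2 without HEP array 8. The replicate numbers of the titles did not pair the arrays: the correlation of residuals of same-numbered arrays exceeded 0.1 in 3 of 24 pairs near 10 (-0.0828 to 0.13), 9 of 24 at 10 or above (-0.17 to 0.33) and 6 of 24 below 10 (-0.12 to 0.22). With the replicate block 61, 4 and 3 probes were called in HAL, 36, 0 and 0 in HEP and 1 near 10 in HAL minus HEP. Higd1a kept its HEP call (0.43, adjusted p = 0.0443), while Hk1 (adjusted p = 0.0552), Slco1a4 (adjusted p = 0.0727) and Col3a1 (adjusted p = 0.0946) passed no longer.

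Sign changes concerned differences that were not called, apart from Hk1 and Col3a1. On the circle they were -0.26 for Bnip3, -0.00656 for Car9, -0.00722 for Ero1a near 10, -0.22 for Hk1 and 0.13 for Col3a1 in HAL, 0.0184 for Car9 and -0.0261 for Hk1 in HEP, and -0.025 for Car9 in HAL minus HEP. With the circle opened at the widest gap they were 0.22 for Ndrg1 probe 1391458_at and 0.12 for Ldha in HAL, 0.0727 for that Ndrg1 probe in HEP and 0.16 for Pgk1 probe 1387361_s_at in HAL minus HEP. Other readings of short cells gave -0.0033 for Pgk1 probe 1368906_at in HEP and, in HAL minus HEP, 0.18 for Bnip3, 0.11 for Higd1a probe 1374105_at, -0.0498 for Ndrg1 probe 1391458_at and 0.17 for Pgk1 probe 1387361_s_at. Arrays centred gave 0.000937 for Ldha in HAL and, in HAL minus HEP, 0.0185 for Bnip3l probe 1367898_at and -0.00193 for Ndrg1 probe 1391458_at, which was -0.00147 with array weights. The replicate block gave 0.0422 for that Bnip3l probe. With 1 array left out, HAL minus HEP ran from -0.23 to 0.0274 for Bnip3, -0.0637 to 0.0422 for Bnip3l probe 1367898_at, -0.0988 to 0.0664 for Higd1a probe 1374105_at, -0.0607 to 0.0969 for Ndrg1 probe 1391458_at and -0.13 to 0.0586 for Pgk1 probe 1387361_s_at. HAL minus Sham ran from -0.12 to 0.00167 for Ero1a probe 1387964_a_at, -0.0947 to 0.0625 for Ndrg1 probe 1391458_at and -0.10 to 0.0275 for Ldha. HEP minus Sham ran from -0.0334 to 0.15 for Ndrg1 probe 1371360_at, -0.11 to 0.0351 for Ndrg1 probe 1391458_at and -0.00707 to 0.0222 for Pgk1 probe 1368906_at. The level of the signal over background was not available, so no limit from dim probes could be set.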
